A study of Mus musculus with 6 samples.

Results

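The 41 genes described here encode the machinery that builds autophagosomes, the receptors that load cargo into them, and TFEB and TFE3, related transcription factors of autophagy and lysosome genes. They were chosen by name, with earlier results of these data known. All 41 were found by gene symbol among the 18057 genes of the deposited table. Of these 41 genes, 40 reached a mean of 1 FPKM over the 6 libraries and were tested, and Atg10 did not. FPKM counts sequenced fragments per unit of gene length, scaled to the size of the library, so levels can be compared between genes. The libraries came from 4T1, an established mouse breast cancer cell line, with 3 libraries from cells treated with DMSO, the solvent, and 3 from cells treated with BRQ. The series title speaks of an inhibitor of DHODH, a mitochondrial enzyme needed to make pyrimidines, and the groups are compared for the effect of that treatment on transcripts. Dose and duration are not in the labels used here. Every title also holds the letters DHO, left unexplained, so an agent shared by both groups cannot be told from the labels.

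Autophagy delivers cytoplasm and organelles to lysosomes in a double-membraned vesicle. The ULK1 kinase complex starts the process, a class III PI3K complex around Beclin 1 marks the membrane with a phosphoinositide that WIPI proteins read, and ATG9 and ATG2 supply lipid. A ubiquitin-like system then attaches proteins of the ATG8 family (the LC3 and GABARAP proteins) to the membrane lipid phosphatidylethanolamine, and receptors such as p62 bind them together with cargo. TFEB and TFE3 move to the nucleus when mTORC1 activity falls, and their control is largely by phosphorylation, which RNA sequencing does not measure. No protein, phosphorylation or autophagic flux was measured in these libraries.

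The libraries held 30954935 to 34067293 reads, recovered from the steps between FPKM values, and a tested gene of the 41 had a mean of 357 to 25739 reads. All 6 mammary epithelial markers looked at (Krt8, Krt18, Krt7, Epcam, Cdh1 and Krt14) were above 1 FPKM, and summed to 1801 to 1849 FPKM under DMSO and 1344 to 1394 under BRQ. The keratin genes were lower under BRQ, with DMSO and BRQ means of 609 and 404 FPKM for Krt8, 586 and 468 for Krt18, 347 and 237 for Krt7, and 28.5 and 12.9 for Krt14. Cdh1 had means of 178 under DMSO and 170 under BRQ, and Epcam was higher under BRQ (77.2 and 81.8). BRQ replicates 2 and 3 stood apart in transcripts of other cell types. The summed level of 12 hepatocyte markers was 16.8 to 20.1 FPKM under DMSO and 17.8 in BRQ replicate 1, against 0.754 and 0.744 in BRQ replicates 2 and 3. That of 12 macrophage markers was 32.9 to 37.1 FPKM under DMSO and 68.3, 121 and 114 in the BRQ replicates, with 4 of the 12 at a mean of 1 FPKM or more. Cd68 was at 21.0, 23.5 and 18.7 FPKM under DMSO and 50.2, 61.2 and 53.3 under BRQ, and Cd14 at 6.13, 6.64 and 6.29 under DMSO and 12.4, 15.1 and 13.8 under BRQ. Lyz2 was at 4.44, 4.86 and 5.38 FPKM under DMSO and 3.56 in BRQ replicate 1, against 35.4 and 36.4 in BRQ replicates 2 and 3, and Tyrobp at no more than 0.725 in those 4 libraries, against 6.06 and 6.54. The other 8 macrophage markers, among them Adgre1, Csf1r and Ptprc, reached at most 0.805 FPKM in any library. No marker of either list was at 0 in every library. Fibroblast markers summed to 4.87 to 8.91 FPKM, nearly all of it Pdgfra, and the endothelial and T cell markers to at most 0.431 and 0.387. With BRQ replicate 1 as the only BRQ library, whose spread is then taken from the DMSO libraries, 27 of the 40 autophagy genes were called higher and 6 lower, and the part of these transcripts in the results was otherwise not tested. The libraries came from a cell line, and where the hepatocyte and macrophage marker transcripts came from was not tested. In bulk RNA, a smaller number of cells of a type and less RNA per cell cannot be told apart.

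Most of the autophagy genes were higher under BRQ, including all 5 genes of the ATG8 family and 4 of 5 of the ULK1 complex, while Sqstm1, Atg4c and 5 others were lower. Of the 40 tested genes, 28 (70%) were called higher and 7 (17.5%) lower by limma at an adjusted p of 0.05, and 5 were not called. Among all 10552 tested genes 48.7% were called higher and 33.7% lower, so calls in either direction were the rule (82.4%). In 30 of the 40 genes (75%) the 3 BRQ values lay above the 3 DMSO values and in 7 (17.5%) below, where 49.0% of all tested genes had such a separation upward, 34.8% downward and 83.7% in either direction. The median log2 fold change was 0.38, against 0.12 for all tested genes, which is a shift of the whole table that all fold changes here include. A called rise reached 1.5-fold in 16 genes (40%, against 25.1% of all tested genes) and 2-fold in 4, which are Atg101, Map1lc3b, Atg14 and Map1lc3a (10%, against 10.1%). A called fall reached 1.5-fold in 2, Atg4c and Sqstm1 (5%, against 14.2%). Under median-ratio scaling 27 genes were called higher and 10 lower, and after quantile normalization 26 and 9, while the whole table went from 5143 higher and 3555 lower to 4433 and 4301, and to 4250 and 4432. For each gene, parentheses give limma's log2 fold change of FPKM + 1 with its SE, in which low genes appear less changed than they are, and folds in the text are ratios of mean FPKM. No label says that the 3 libraries of a group came from separate cultures, so p-values measure the spread among these libraries, which may be technical.

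**Figure D1:**
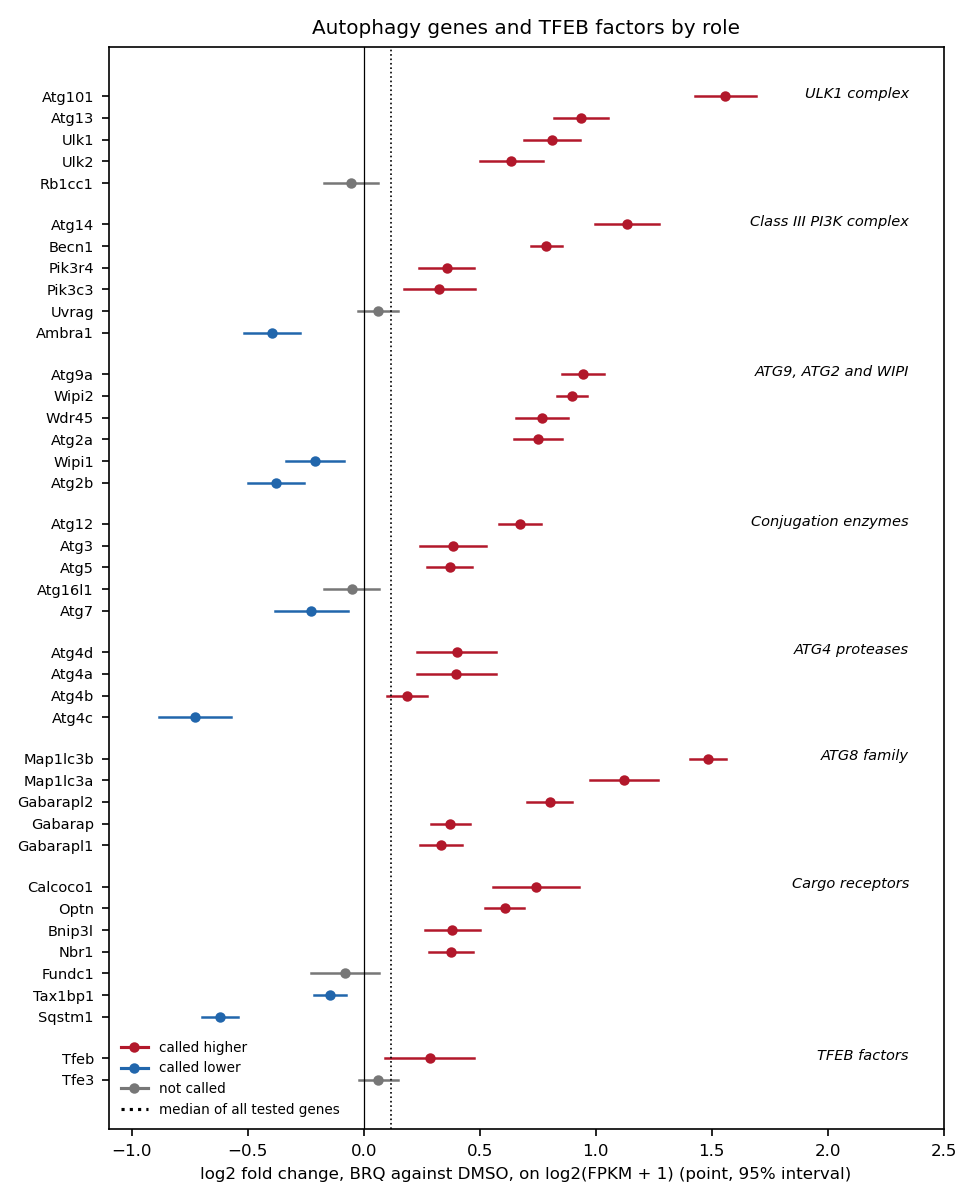
Log2 fold change of the 40 tested autophagy genes with its 95% interval from limma, grouped by role. Red marks 28 genes called higher, blue 7 called lower and grey 5 not called, and the dotted line is the median of all tested genes (0.12).

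The ULK1 complex, a kinase with its scaffold and adaptor subunits, had 4 of its 5 genes higher and none lower. Atg101, whose product stabilises ATG13 in the complex, had the largest change of all 40 genes. Its level was 12.4, 13.1 and 11.6 FPKM under DMSO and 38.8, 40.9 and 35.6 under BRQ (3 libraries each; 1.56 ± 0.0588, adjusted p = 6.97e-09), a 3.104-fold rise in which every BRQ library lay far above every DMSO library. The 250 bases before its annotated start (RefSeq, GRCm38.p6, chr15:101284051-101284300, plus strand) are shown because the gene changed most, and they contain neither an E-box (CACGTG) nor a GC box (GGGCGG) on either strand.
Atg101: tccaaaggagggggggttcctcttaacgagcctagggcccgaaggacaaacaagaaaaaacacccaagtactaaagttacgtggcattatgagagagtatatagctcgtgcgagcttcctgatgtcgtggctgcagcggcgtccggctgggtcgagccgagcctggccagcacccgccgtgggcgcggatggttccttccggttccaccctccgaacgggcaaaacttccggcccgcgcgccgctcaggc
Atg13, the phosphorylated adaptor of the kinase, stood at 13.8, 13.4 and 12.5 FPKM under DMSO and 27.3, 24.5 and 26.8 under BRQ (0.94 ± 0.0526, adjusted p = 8.61e-08). Ulk1, the kinase itself, measured 11.6, 11.3 and 10.1 FPKM under DMSO and 19.7, 20.5 and 19.8 under BRQ (0.81 ± 0.0536, adjusted p = 2.71e-07). Neither gene's groups overlapped, and Ulk2, the lower paralog of Ulk1, rose alongside (0.64, adjusted p = 4.01e-06), so that Ulk1 exceeded Ulk2 3.42-fold under DMSO and 3.598-fold under BRQ. Rb1cc1, which encodes the large scaffold FIP200, did not follow them, with 9.88, 9.74 and 8.91 FPKM under DMSO and 9.12, 8.95 and 9.25 under BRQ and overlapping groups (-0.056, adjusted p = 0.331, 95% interval -0.17 to 0.06). It was called lower after median-ratio scaling (-0.16, adjusted p = 0.0139) and quantile normalization (-0.16, 0.015). Per length, the ratio of Ulk1 to Rb1cc1 transcripts was 1.152 ± 0.0211 under DMSO and 2.19 ± 0.0798 under BRQ (SD, n = 3).

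The class III PI3K complex exists in alternative forms that share VPS34 (Pik3c3), VPS15 (Pik3r4) and Beclin 1 (Becn1), and contain either ATG14, in the form that acts on early autophagosomes, or UVRAG, in the form of the endosomal route. Of 6 genes of this group, 4 rose, 1 fell and 1 was not called. Atg14 was at 5.06, 5.97 and 5.33 FPKM under DMSO and 13.5, 13.4 and 12.6 under BRQ (1.14 ± 0.0615, adjusted p = 6.54e-08), 2.41-fold higher with wide separation. Uvrag was at 15.04, 14.8 and 15.1 FPKM under DMSO and 15.7, 15.4 and 15.9 under BRQ, and although the BRQ values lay just above the DMSO values the difference did not pass the test (0.061, adjusted p = 0.166, 95% interval -0.025 to 0.15). Its sign turned after median-ratio scaling (-0.052) and quantile normalization (-0.074). The ratio of Atg14 to Uvrag FPKM was 0.364 ± 0.0343 under DMSO and 0.841 ± 0.0398 under BRQ (SD, n = 3), and its ranges did not overlap. Becn1, the most abundant of the group, stood at 44.95, 44.9 and 43.3 FPKM under DMSO and 78.1, 76.5 and 77.4 under BRQ (0.79 ± 0.0296, adjusted p = 6.9e-09). Pik3r4, the pseudokinase that anchors the complex, stood at 6.68, 6.39 and 6.51 FPKM under DMSO and 8.704, 8.200 and 9.06 under BRQ (0.36 ± 0.053, adjusted p = 0.000115), and the lipid kinase gene Pik3c3 was the lowest of the group and rose from 1.43 ± 0.0549 to 2.05 ± 0.0214 FPKM (0.33, adjusted p = 0.0013). Ambra1, which encodes a Beclin 1 partner that also serves in a ubiquitin ligase, fell: its level was 10.7, 10.7 and 9.598 FPKM under DMSO and 7.52, 7.51 and 7.77 under BRQ (-0.40 ± 0.0542, adjusted p = 6.57e-05), with all BRQ values below all DMSO values.

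Genes of lipid supply and phosphoinositide reading divided by paralog, with 4 of 6 higher and 2 lower. Atg9a, which encodes a membrane-spanning lipid scramblase, was at 12.96, 13.3 and 13.3 FPKM under DMSO and 25.4, 27.02 and 26.6 under BRQ (0.94 ± 0.0397, adjusted p = 1.32e-08). Wipi2, whose product recruits ATG16L1 to the phosphoinositide, was at 33.1, 32.9 and 32.9 FPKM under DMSO and 62.2, 61.7 and 62.98 under BRQ (0.90 ± 0.0289, adjusted p = 2.83e-09). Wdr45, which encodes the related protein WIPI4, a partner of ATG2, was at 10.9, 11.7 and 10.3 FPKM under DMSO and 19.8, 19.3 and 19.1 under BRQ (0.77 ± 0.0502, adjusted p = 2.5e-07). The groups of all 3 genes were separate. Wipi1, which is widely used as an autophagy marker transcript, went the other way, with 34.1, 35.4 and 33.3 FPKM under DMSO and 28.3, 32.4 and 27.9 under BRQ (-0.21 ± 0.0552, adjusted p = 0.00513), and BRQ replicate 2 came closest to the DMSO libraries. Wipi1 and Wipi2 were nearly level under DMSO, and the ratio of Wipi2 to Wipi1 was 0.964 ± 0.0306 under DMSO and 2.12 ± 0.189 under BRQ (SD, n = 3). The lipid transfer genes Atg2a and Atg2b parted in the same way. Atg2b was at 13.00, 12.1 and 11.7 FPKM under DMSO and 9.17, 8.85 and 9.55 under BRQ (-0.38 ± 0.0533, adjusted p = 8.16e-05), while Atg2a rose from 11.1 ± 0.388 to 19.4 ± 0.737 FPKM (0.75, adjusted p = 1.56e-07). Their ratio, Atg2a over Atg2b, was 0.908 ± 0.0406 under DMSO and 2.11 ± 0.106 under BRQ (SD, n = 3), without overlap.

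In the conjugation system, where ATG7 acts as E1, ATG3 and ATG10 as E2 and the ATG12-ATG5-ATG16L1 complex as E3, 3 of 5 tested genes were called higher and 1 lower. Atg12, the ubiquitin-like protein of the E3, was at 18.7, 18.2 and 18.5 FPKM under DMSO and 31.4, 28.9 and 29.99 under BRQ (0.67 ± 0.0406, adjusted p = 1.41e-07). Atg3 was at 14.4, 13.9 and 15.7 FPKM under DMSO and 18.8, 21.2 and 18.3 under BRQ (0.38 ± 0.0631, adjusted p = 0.000243) and Atg5 at 10.1, 10.2 and 10.7 FPKM under DMSO and 13.6, 13.5 and 13.9 under BRQ (0.37 ± 0.0432, adjusted p = 1.91e-05), with separate groups in both cases. Atg7 was at 4.65, 5.51 and 5.12 FPKM under DMSO and 4.200, 3.96 and 4.46 under BRQ (-0.23 ± 0.0704, adjusted p = 0.0131), a small fall that was not called without DMSO replicate 2 (adjusted p = 0.0552) or with BRQ replicate 1 as the only BRQ library (0.0822), while adjusted p ran from 0.00174 to 0.0822 among the alternatives. Atg16l1 was at 12.8, 12.8 and 13.02 FPKM under DMSO and 12.5, 11.5 and 13.2 under BRQ and was not called (-0.051, adjusted p = 0.382, 95% interval -0.17 to 0.067), though it was lower after median-ratio scaling (adjusted p = 0.0152) and quantile normalization (0.0117). Atg10, the E2 of ATG12, lay below the level for testing, with a mean of 32.7 reads and 0.962, 1.07 and 0.532 FPKM under DMSO and 0.133, 0.0758 and 0.2204 under BRQ. All 3 of its BRQ values were below its DMSO values, and without a filter it was called lower (log2 fold change -0.69, adjusted p = 0.00349).

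Atg3, Atg5 and Atg7 are also the only 3 of the 33 tested genes with a promoter in the RefSeq table (GRCm38.p6) whose 250 bases before the start hold the palindrome CACGTG, the E-box that TFEB and TFE3 bind. That is 9.09% of these genes, against 10.3% of 8535 tested genes of the whole table. Each stretch of 30 bases below is printed because it holds that match, which is in capitals.
Atg3, chr16:45158723-45158752, plus strand, match starting 94 bases before the start: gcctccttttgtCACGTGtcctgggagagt
Atg3, chr16:45158746-45158775, plus strand, match starting 71 bases before the start: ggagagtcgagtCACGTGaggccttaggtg
Atg5, chr10:44268309-44268338, plus strand, match starting 14 bases before the start: agggcggagcgcttgcCACGTGgtcttggt
Atg7, chr6:114670952-114670981, plus strand, match starting 132 bases before the start: catattggtggtCACGTGtgcagtaagtga
Both Atg3 windows and that of Atg7 extend the match to GTCACGTG, which 4.17% of the tested genes hold on either strand, and none of the 33 genes holds the full palindromic CLEAR element, found in 0.656% of tested genes. Of the 3 genes with an E-box 2 rose and 1 fell, and none was among the 16 with a called rise of at least 1.5-fold. A match is a run of letters and not a measured binding site, and matches outside these windows were not looked for.

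The ATG4 proteases, which trim ATG8 proteins before conjugation and free them afterwards, had 3 of 4 genes higher and 1 lower. Atg4b, the most active of the family, was at 16.8, 16.5 and 16.1 FPKM under DMSO and 19.03, 18.8 and 18.8 under BRQ (0.19 ± 0.0379, adjusted p = 0.00103), and this small rise was not called after median-ratio scaling (adjusted p = 0.0926) or quantile normalization (0.36), while adjusted p ran from 0.000733 to 0.36 among the alternatives. Atg4a was at 4.35, 3.96 and 4.78 FPKM under DMSO and 6.02, 5.59 and 6.62 under BRQ (0.40 ± 0.0765, adjusted p = 0.000706). Atg4d was at 10.5, 11.5 and 12.8 FPKM under DMSO and 14.1, 16.3 and 16.5 under BRQ (0.40 ± 0.0762, adjusted p = 0.000671). These 3 genes rose by less than 1.5-fold, while Atg4c had the largest fall of the 40 genes. It was at 2.23, 2.26 and 2.27 FPKM under DMSO and 0.962, 0.986 and 0.956 under BRQ (-0.73 ± 0.0691, adjusted p = 4.16e-06), 2.33-fold lower with narrow spread in each group. The ratio of Atg4b to Atg4c was 7.31 ± 0.236 under DMSO and 19.5 ± 0.391 under BRQ (SD, n = 3).

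**Figure D2:**
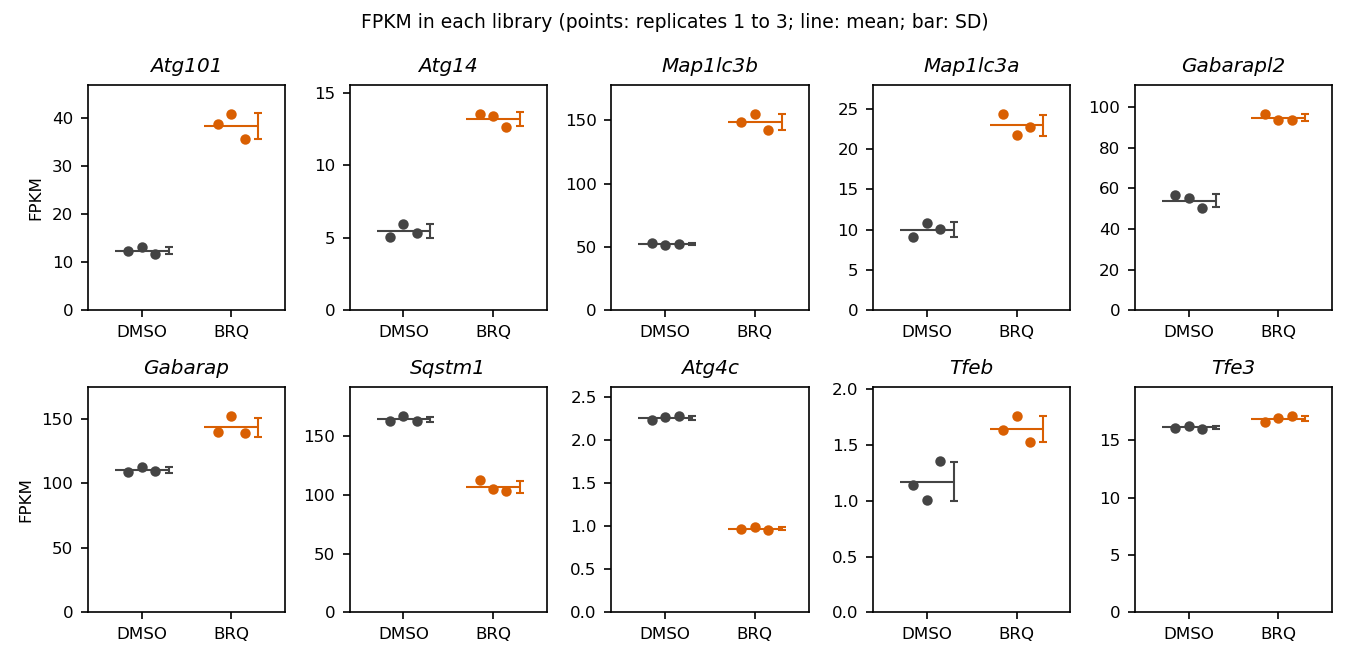
FPKM of 10 of the genes in each library, with points for replicates 1 to 3, a line for the mean and a bar for the SD. Groups are separate in all 10 panels, with BRQ lower for Sqstm1 and Atg4c only, and the gap for Tfe3 did not pass the test.

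All 5 genes of the ATG8 family rose in every alternative fit, and by unequal amounts. Set against tested genes of like genomic span, Gabarap (-0.15) and Gabarapl1 (-0.075) lay below that reference. Map1lc3b, which encodes LC3B, the usual marker of autophagosomes, was at 53.2, 51.5 and 52.6 FPKM under DMSO and 148, 155 and 142 under BRQ (1.48 ± 0.0349, adjusted p = 5.96e-10), 2.83-fold higher. Map1lc3a, its lower-expressed paralog, was at 9.07, 10.9 and 10.1 FPKM under DMSO and 24.3, 21.8 and 22.7 under BRQ (1.12 ± 0.065, adjusted p = 1.06e-07). Gabarapl2, which encodes GATE-16, was at 56.7, 55.1 and 50.2 FPKM under DMSO and 96.7, 93.95 and 93.7 under BRQ (0.80 ± 0.0431, adjusted p = 6.29e-08). In these 3 genes the lowest BRQ value exceeded the highest DMSO value by far more than the spread within a group. Gabarap was at 109, 113 and 109 FPKM under DMSO and 139.8, 152 and 138 under BRQ (0.37 ± 0.0371, adjusted p = 5.75e-06). Gabarapl1 was at 37.1, 39.8 and 36.8 FPKM under DMSO and 47.2, 49.8 and 47.1 under BRQ (0.33 ± 0.04, adjusted p = 2.38e-05). Their groups were also separate, with smaller log2 fold changes than those of Map1lc3b, Map1lc3a and Gabarapl2.

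Summed over the family, ATG8 transcripts amounted to 265 ± 5.44 under DMSO and 458 ± 14.2 under BRQ (FPKM; SD, n = 3). Map1lc3b made up 19.8 ± 0.65% under DMSO and 32.4 ± 0.406% under BRQ of that sum, while Gabarap made up 41.7 ± 0.57% under DMSO and 31.3 ± 0.761% under BRQ. The share of Gabarapl1 was 14.3% under DMSO and 10.5% under BRQ, and that of Gabarapl2 stayed within its spread (20.4% and 20.7%). Under DMSO, Gabarap was thus the leading transcript of the family in all 3 libraries. Under BRQ the levels of Map1lc3b and Gabarap overlapped, with Map1lc3b the higher in each library. The 250 bases before the start of Map1lc3b (RefSeq, GRCm38.p6, chr8:121590188-121590437, plus strand) are shown as those of the family's largest rise, with their single GC box, read on the opposite strand, in capitals.
Map1lc3b: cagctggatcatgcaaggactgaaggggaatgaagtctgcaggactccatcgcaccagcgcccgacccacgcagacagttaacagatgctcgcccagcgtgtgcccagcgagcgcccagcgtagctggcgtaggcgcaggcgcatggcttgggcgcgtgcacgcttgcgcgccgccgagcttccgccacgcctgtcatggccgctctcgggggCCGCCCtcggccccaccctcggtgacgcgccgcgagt
A GC box was found in 60.6% of the 33 genes with a promoter and in 66.8% of all tested genes with one.

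**Figure D3:**
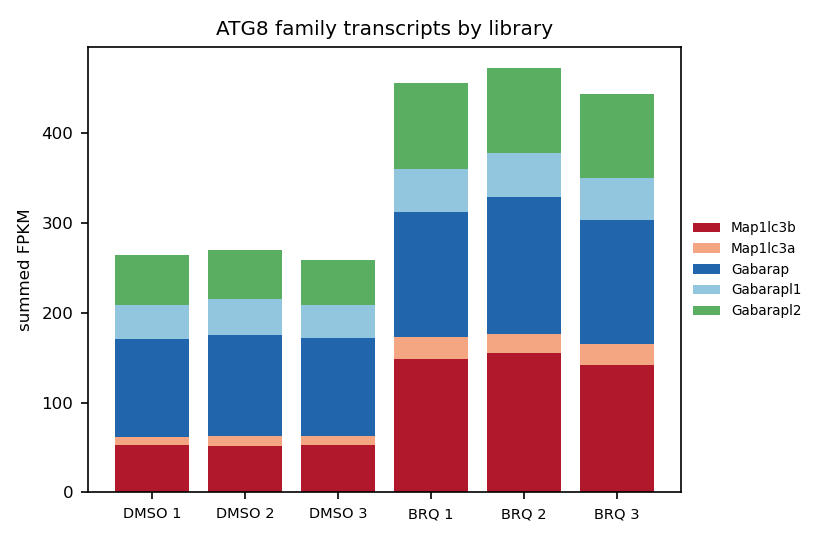
Summed FPKM of the 5 ATG8 family genes in each library, stacked by gene. The bars reach 259 to 270.0 FPKM under DMSO and 444 to 472 under BRQ, and Map1lc3b (red) widens from about 20 to 32 percent of the bar.

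Cargo receptors were divided, with 4 of 7 genes higher and 2 lower. Sqstm1, which encodes p62, the receptor for ubiquitinated cargo that is itself degraded by autophagy, was the most abundant of all 41 transcripts under DMSO and fell. It was at 163, 167 and 162 FPKM under DMSO and 112, 105 and 103 under BRQ (-0.62 ± 0.0345, adjusted p = 8.24e-08), 1.54-fold lower with no overlap, and was then exceeded by Map1lc3b and Gabarap in every BRQ library. The ratio of Map1lc3b to Sqstm1 was 0.3196 ± 0.00958 under DMSO and 1.39 ± 0.0802 under BRQ (SD, n = 3). That ratio shows how far these transcripts parted, and neither LC3B nor p62 protein was measured. The stretch before the start of Sqstm1 (RefSeq, GRCm38.p6, chr11:50210821-50211070, minus strand) is given as that of the abundant gene that fell, and its 3 GC boxes are in capitals, of which 2 are read on the opposite strand.
Sqstm1: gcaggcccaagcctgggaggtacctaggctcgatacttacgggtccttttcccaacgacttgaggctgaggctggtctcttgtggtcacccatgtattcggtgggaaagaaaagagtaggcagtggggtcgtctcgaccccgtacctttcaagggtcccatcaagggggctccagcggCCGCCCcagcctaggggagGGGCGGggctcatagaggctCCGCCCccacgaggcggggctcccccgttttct
Sqstm1 is also a target of NRF2 and NF-kB. The printed stretch holds no match to the core antioxidant response element TGACNNNGC, which 14.1% of tested genes hold in theirs. Bases further upstream were not searched, so the part of NRF2 in the fall of Sqstm1 was not tested. Calcoco1, a receptor of ER and Golgi turnover, was at 11.00, 12.6 and 9.52 FPKM under DMSO and 18.9, 19.99 and 18.3 under BRQ (0.74 ± 0.0824, adjusted p = 1.34e-05). Optn, which encodes optineurin, a receptor for damaged mitochondria and bacteria, was at 19.1, 17.95 and 18.2 FPKM under DMSO and 28.6, 28.5 and 28.6 under BRQ (0.61 ± 0.0374, adjusted p = 1.6e-07). Bnip3l, which encodes the hypoxia-induced mitophagy receptor NIX, was at 40.9, 41.3 and 47.2 FPKM under DMSO and 55.6, 55.6 and 57.96 under BRQ (0.38 ± 0.0524, adjusted p = 6.69e-05). All 3 had separate groups, and DMSO replicate 3 was the highest control for Bnip3l. Nbr1, whose product forms mixed filaments with p62, rose from 39.3 ± 2.34 to 51.3 ± 0.233 FPKM (0.38, adjusted p = 1.38e-05), so it moved against Sqstm1. Tax1bp1, which encodes a relative of the receptor NDP52, was at 44.3, 43.98 and 45.4 FPKM under DMSO and 39.8, 39.9 and 40.96 under BRQ (-0.14 ± 0.0313, adjusted p = 0.00161), the smallest of the 7 falls. Fundc1, a mitophagy receptor of the outer mitochondrial membrane, was at 6.41, 6.98 and 6.45 FPKM under DMSO and 5.92, 6.79 and 5.89 under BRQ, with overlapping groups (-0.082, adjusted p = 0.263, 95% interval -0.23 to 0.064), and was called lower only under median-ratio scaling among the alternatives (-0.19, adjusted p = 0.024).

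Of the factors known to activate autophagy and lysosome genes, Tfeb rose 1.40-fold from a low level and Tfe3, the more abundant, was not called. Tfeb was at 1.14, 1.01 and 1.36 FPKM under DMSO and 1.64, 1.76 and 1.53 under BRQ (0.28 ± 0.0858, adjusted p = 0.0109), close to the lower limit for testing. The highest DMSO library reached 1.36 FPKM and the lowest BRQ library 1.53. Its call was lost after quantile normalization (adjusted p = 0.0686) and with BRQ replicate 1 as the only BRQ library (0.0855), while adjusted p ran from 0.000927 to 0.0855 among the alternatives. Tfe3 was at 16.1, 16.3 and 15.97 FPKM under DMSO and 16.6, 16.9 and 17.1 under BRQ and was not called (0.063, adjusted p = 0.142, 95% interval -0.021 to 0.15), and the sign turned after median-ratio scaling (-0.049) and quantile normalization (-0.082). Per length, Tfe3 transcripts exceeded those of Tfeb 13.97 ± 2.17-fold under DMSO and 10.3 ± 0.794-fold under BRQ (SD, n = 3). The related genes Mitf (0.962, 1.07 and 1.04 FPKM under DMSO, 0.747, 0.642 and 0.612 under BRQ) and Tfec (at most 0.0263 FPKM) lay below the level for testing, so Tfe3 was the most abundant of the 4 family genes in every library.

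Genes listed as TFEB regulators, whose products do not all act on it in the same direction, were mostly called lower. Of 15 tested regulators 4 were called higher (26.7%) and 9 lower (60%), against 48.7% and 33.7% of all tested genes, and the same counts were found under both other scalings. Set against tested genes of like span, Mtor (0.047) and Rptor (0.24) lay above the reference although called lower. Foxo3 (-0.036), Ppp3r1 (-0.22), Fnip2 (-0.24), Fnip1 (-0.36), Stk11 (-0.48), Prkaa1 (-0.53) and Ppp3cb (-0.86) lay below theirs. The 4 called higher lay above theirs, by 0.065 (Rragc) to 0.90 (Mcoln1). These distances were added after the values were seen, and the part of span in the counts was not tested. The rises were those of Mcoln1, Rraga, Flcn and, named after its value was seen, Rragc (0.37). Mcoln1, which encodes the lysosomal calcium channel TRPML1 and is itself a TFEB target, rose 2.400-fold from 23.7 ± 0.95 to 56.8 ± 0.16 FPKM (1.23 ± 0.0364, adjusted p = 1.69e-09). The Rag GTPase gene Rraga rose from 33.6 ± 1.79 to 76.7 ± 1.69 FPKM (SD, n = 3; 1.17), and Flcn, whose product folliculin acts on the Rag GTPases that bring TFEB to mTORC1, from 5.43 ± 0.256 to 11.5 ± 0.399 FPKM (0.96). Fnip1, the partner of folliculin, fell from 17.98 ± 0.75 to 11.2 ± 0.526 FPKM (-0.63), opposite to Flcn. Ppp3cb, a catalytic subunit of calcineurin, which dephosphorylates TFEB, fell from 22.9 ± 1.16 to 11.6 ± 0.26 FPKM (-0.92, adjusted p = 4.38e-08).

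Lysosomal genes known as TFEB targets rose almost throughout. Of 28 tested genes 25 were called higher (89.3%, against 48.7% of all tested genes) and none lower (against 33.7%). Their median log2 fold change was 0.43. The other 3, named after their values were seen, were Lamp2, Asah1 and Gaa. Set against tested genes of like span, Naglu (-0.31), Cln3 (-0.11) and Cd63 (-0.059) lay below the reference although called higher. Gaa (-0.25) and Asah1 (-0.095) also lay below theirs, and the remaining tested genes of the list lay above. Under median-ratio scaling 22 of the 28 genes were higher (78.6%) and 2 lower (7.14%), against 42.0% and 40.8% of all tested genes. After quantile normalization 20 were higher (71.4%) and 2 lower (7.14%), against 40.3% and 42.0%. The largest rises were those of the sialidase gene Neu1 (3.45-fold, 1.66), the peptidase gene Tpp1 (2.27-fold, 1.13) and Ctsa, which encodes cathepsin A (2.02-fold, 0.97). Among the 20 such genes with a RefSeq promoter, 9 (45%) held an E-box in the 250 bases before the start, a list property to be read with care, since such elements helped to define TFEB targets. The autophagy genes, with 9.09%, differ from them in that count, and the difference was not tested.

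Other genes of autophagosome formation, fusion and selective autophagy followed the core machinery in number. Of 34 tested genes 23 were called higher (67.6%, against 48.7% of all tested genes) and 4 lower (11.8%, against 33.7%). After quantile normalization 18 were higher (52.9%) and 5 lower (14.7%), against 40.3% and 42.0% of all tested genes. Snap29, a SNARE of autophagosome-lysosome fusion, rose 2.52-fold from 11.1 ± 1 to 27.9 ± 1.11 FPKM (1.26 ± 0.0605, adjusted p = 3.01e-08). Ncoa4, the receptor for ferritin, rose from 14.3 ± 0.0763 to 31.7 ± 1.36 FPKM (1.10) and Tmem41b, a lipid scramblase of the ER, from 7.22 ± 0.647 to 15.5 ± 0.307 FPKM (1.01). Vmp1, which encodes the scramblase that works with TMEM41B, fell from 67.9 ± 1.77 to 34.4 ± 0.214 FPKM (-0.96 ± 0.0314, adjusted p = 3.02e-09), and Wdfy3, a large scaffold of aggregate clearance, fell from 3.51 ± 0.186 to 1.79 ± 0.138 FPKM (-0.69). The other 2 that fell, named after their values were seen, were Stx17 (-0.40), whose SNARE protein pairs with SNAP29, and Stbd1 (-0.56), which binds glycogen.

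**Figure D4:**
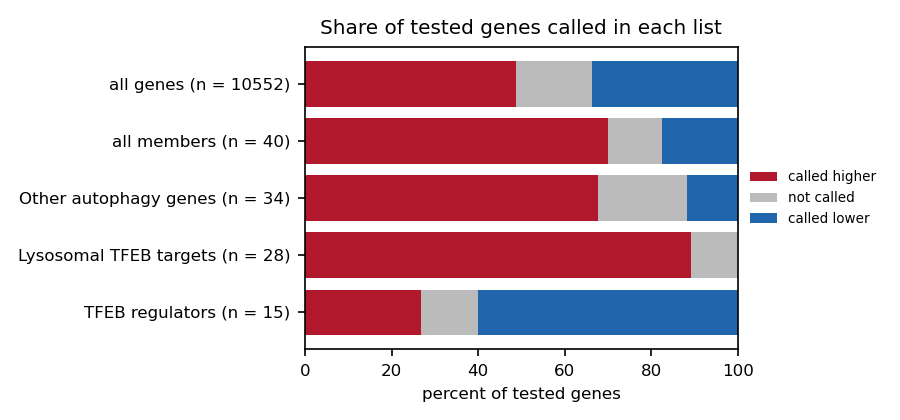
Percent of tested genes called higher (red), not called (grey) and called lower (blue) for all genes, the autophagy genes described here and the 3 related lists. Called-higher shares are 48.7%, 70%, 67.6%, 89.3% and 26.7% from top to bottom.

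Fold change fell with genomic span in the autophagy genes as in the whole table. The median span was 24.6 kb for the 28 genes called higher and 65.9 kb for the 7 called lower, and 29.8 kb for all 40 against 23.2 kb for all tested genes (GENCODE M21, GRCm38). Spearman's rho between span and log2 fold change was -0.50 across the 40 genes and -0.49 across 10369 tested genes with a known span, a description across genes that share the same 6 libraries. Against a running median over tested genes of like span, 30 of 40 autophagy genes lay above, with a median distance of 0.40, against the 0.26 by which they exceeded the median of all genes. Of the 28 genes called higher 26 lay above that reference, and of the 7 called lower 5 lay below it. Calls and distances come from the same log2 fold changes, so these counts are description and lend no separate support. Atg101 lay 1.10, Map1lc3b 1.06 and Atg14 1.04 above genes of like span, and Sqstm1 -0.997 from them. The exceptions among the risers were Gabarap (-0.15) and Gabarapl1 (-0.075), both short genes. Uvrag, the longest of the tested genes of the 41 at 256 kb, was not called and lay 0.62 above its reference, and the long genes Ambra1 (0.081) and Atg7 (0.31) lay above theirs although they fell.

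**Figure D5:**
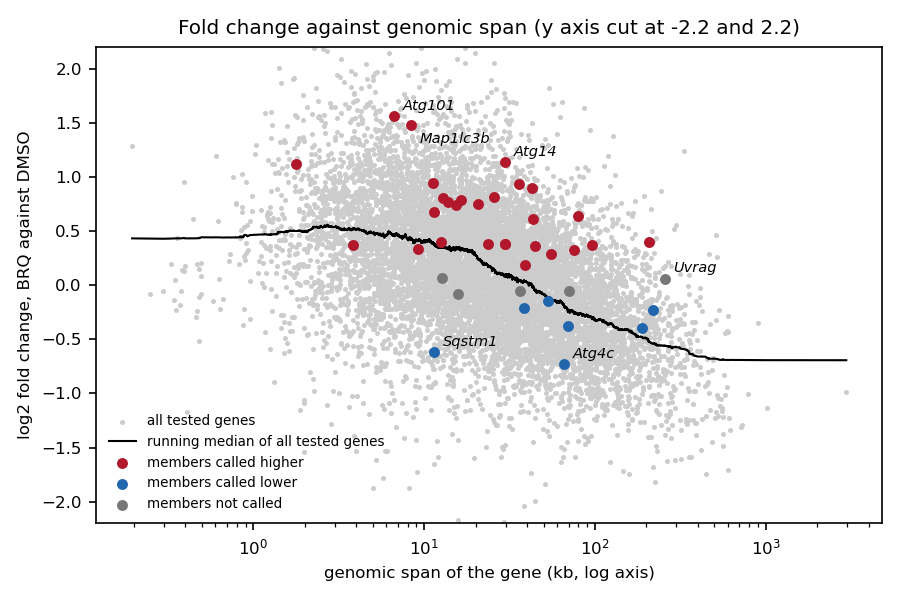
Log2 fold change against genomic span (log axis) for all tested genes (light grey) with their running median (black line) and the 40 autophagy genes by call. Most autophagy genes lie above the line, Sqstm1 lies furthest below it, and the y axis is cut, which leaves out a few of the other genes.

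Because the strand setting of the counting is not given, reads of overlapping genes cannot be told apart. In GENCODE M21, 7 of the 41 genes share at least 10% of their exonic bases with another gene. The largest shares are those of Becn1 (43.9%, with Cntd1), Atg9a (32.6%, with Ankzf1 and Gm29253 together) and Gabarapl1 (28.3%). Sqstm1 shares 17.3% with Mrnip, which was at 4.53 FPKM under DMSO and 13.7 under BRQ, a difference opposite to that of Sqstm1. Cntd1 was at 0.587 and 2.85 FPKM, low beside Becn1.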

How the data were processed

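RNA from 4T1 cells was sequenced in 3 libraries per treatment. FPKM values per gene were deposited by the authors, who used fastp, HTSeq and the GRCm39 build, per the submitters' processing notes. Not given in the sources used here were aligner, annotation, strand setting and versions. The 8 columns of the deposited table that match no sample here were left unused.

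Groups were compared with limma 3.58.1 (R 4.3.3, trended variance) on log2(FPKM + 1), over the 10552 of 18057 genes whose mean reached 1 FPKM, with Benjamini-Hochberg adjustment over all of them and a threshold of 0.05. Intervals are at 95%. Reads were recovered from the steps between FPKM values, and 100% of tested values came out whole within 0.004 reads, which gave the depth per library and a read-based alternative (limma-voom), which called 8780 genes. Intervals cover the spread between libraries only. The fit and the recovery were tested on simulated data.

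Members and gene lists were chosen with earlier results of these data known. Library values are given for Tfeb, Tfe3, the ATG8 family and, in each other role group, up to 3 called genes with the largest rise and 2 with the largest fall. From each related list the 3 largest rises and 2 largest falls are named. Genes that were not called, and Atg10, were also given in full after their values were seen. Calcoco2 was not matched. Listed genes were matched to the deposited table by symbol and then by older symbol. Genomic span and exonic overlap were taken from GENCODE M21 (GRCm38) and promoters from RefSeq (GRCm38.p6), matched by the symbol of the deposited table. A promoter was found for 34 of the 41 genes. Alternatives were another pseudocount (0.1), other filters (none, or 5 FPKM), median-ratio scaling, quantile normalization, a robust prior, a replicate block, a reference of like span, each library left out, and BRQ replicate 1 alone.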

Additional observations from a re-analysis of the deposited data

How the results depend on the processing

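Direction and call held for most named genes in every alternative, and the counts called higher and lower over the 40 autophagy genes and over the whole table stayed within 1.5 times. Small counts within groups moved more. Under both median-ratio scaling and quantile normalization, genes called lower went from 0 to 1 in the ULK1 complex, from 1 to 2 among the conjugation enzymes and from 0 to 2 among the lysosomal targets. The conjugation enzymes had 2 called lower with no filter, and none at a minimum of 5 FPKM, without DMSO replicate 2 or with BRQ replicate 1 alone. The factors TFEB and TFE3 had none called higher after quantile normalization, with BRQ replicate 1 alone or at 5 FPKM, where Tfeb was not tested, and that minimum also left Atg4c untested. The 40 autophagy genes exceeded the median of all tested genes by 0.26 on the log2 scale. That distance was 0.28 with a pseudocount of 0.1, 0.36 with no filter, 0.24 at a minimum of 5 FPKM, 0.25 under median-ratio scaling, 0.28 with limma-voom on recovered reads and 0.40 against genes of like span. Leaving out each library in turn gave 0.24 to 0.29. The sign of Tfe3 turned under median-ratio scaling (-0.049) and quantile normalization (-0.082), as did that of Uvrag (-0.052 and -0.074), and neither gene was called in any of these fits. These scalings remove the shift of the whole table (0.12), and the cause was otherwise not tested. Calls of Atg4b, Atg7 and Tfeb were lost, and calls of Atg16l1, Rb1cc1 and Fundc1 gained, in the settings given with those genes. With a replicate block, 28 autophagy genes were called higher and 7 lower, out of 8619 called in the whole table, and no call among the 41 genes changed. Deviations of same-numbered libraries correlated at 0.004, -0.032 and -0.034, so the numbers were not taken as pairs. Depth and the spread between libraries both limit small differences, and their shares were not tested.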

Other observations

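Bnip3 and Bnip3l, hypoxia-induced genes of paralogous mitophagy receptors, were both highest among controls in DMSO replicate 3, a pattern chosen after the values were seen. Bnip3 was at 54.5, 53.8 and 67.2 FPKM under DMSO and 71.3, 74.1 and 77.3 under BRQ, and Bnip3l at 40.9, 41.3 and 47.2 under DMSO and 55.6, 55.6 and 58.0 under BRQ. Both were called higher under BRQ, and in each the highest control lay below every BRQ library.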
